A study of Equus caballus with 14 samples.

Results

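The interleukin 18 and interleukin 1 genes and the inflammasome genes that mature them were followed in PSSM (polysaccharide storage myopathy) muscle through 10 genes: IL18, IL18R1, IL18RAP, IL18BP, IL1A, IL1B, IL1RN, IL1R1, CASP1 and PYCARD. They were found by gene name among the equine probes and by annotated symbol among the mouse probes, which gave 16 probes, 6 equine and 10 mouse, of the 24493 on the microarray (384 equine and 24109 mouse). The genes were chosen from their PSSM/control ratios, IL18 having the highest ratio of the equine probes. These ratios are therefore given here as a description, and nothing is read from the calls that a fit over all probes makes on them.

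The muscle samples were gluteus medius biopsies of 7 adult Norman Cob horses with PSSM, numbered 5, 12, 32, 38, 42, 44 and 54, each set against 1 pool of RNA from 6 sound control horses of wild type GYS1 genotype. Horse 44 was homozygous for the GYS1 (muscle glycogen synthase) mutation, and horses 12, 32, 38, 42 and 54 were heterozygous. Horse 5 of the labels is not in the list of genotyped horses, which holds a homozygous PSSM horse under a number that the labels do not use, so its genotype is not given here. Every horse had 2 microarrays with the dyes swapped, and values are normalized PSSM/control ratios. The pool counts as 1 control sample, so differences among control animals are absent from every error given, and in whole muscle fewer cells of a type and less RNA per cell cannot be told apart.

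IL-1 and IL-18 are related cytokines of innate immunity. Both IL-1β and IL-18 are made as inactive precursors and cut by caspase 1 (CASP1), which is activated on inflammasomes, complexes of a sensor protein and the adaptor ASC, encoded by PYCARD. IL-1α and IL-1β signal through IL1R1 and are opposed by the receptor antagonist IL1RN, whereas IL-18 signals through IL18R1 and IL18RAP and is bound by the decoy protein IL18BP. In muscle, these cytokines can come from infiltrating leucocytes, vessel cells or the fibers themselves.

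How well each gene was seen differed widely. Of the 16 probes, 12 had a value on at least 1 microarray and 4 had none, namely the equine probe of IL1A and the mouse probes of Il18r1, Il1r1 and Pycard. Only 4 probes had a value on all 14 microarrays, the equine IL1RN, IL1R1 and CASP1 probes and the mouse Il1rn probe. Among all equine probes, 299 of 384 (77.9%) had a value on every microarray and 1 had no value at all, which was the IL1A probe. Among the mouse probes, whose sequences are not equine, 24.4% had a value on every microarray and 15.0% had none.

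A second limit is a floor under the control signal. Where the linear PSSM/control ratio multiplied by 10 is a whole number (within 0.0002), the control was read at the floor, and the ratio gives the PSSM signal over that floor rather than over a measured control level. This was the case for 21 of the 105 values of the 16 probes (20%), 7 of 54 equine values (13.0%) and 14 of 51 mouse values (27.5%). The same held for 2.33% of all equine values and 9.16% of all mouse values. The floor values lay in the cytokine genes, Il18rap, Il18bp and mouse Casp1, and no value of IL1RN, IL1R1, equine CASP1 or mouse Il1rn was at the floor.

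**Figure D1:**
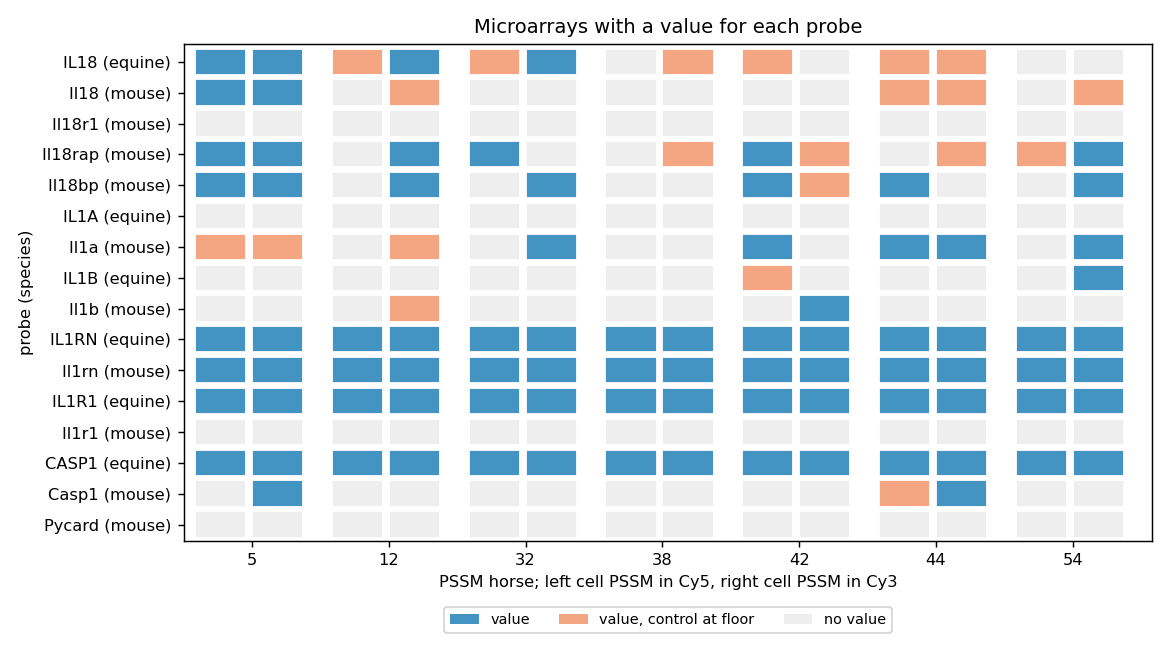
Each row is a probe and each cell a microarray, by horse on the x axis with PSSM muscle in Cy5 at left and in Cy3 at right. Blue cells hold a value, orange cells a value with the control signal at its floor, and grey cells none. The rows of IL1RN, Il1rn, IL1R1 and equine CASP1 are filled on all 14 microarrays, while IL18 has 10 values, 6 of them at the floor.

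IL18, the interferon-γ-inducing cytokine, had the highest mean ratio of the 361 tested equine probes and also the largest spread between horses. The equine IL18 probe lies at position 533 of its transcript and gave 10 values in 6 horses. In horse 5 the PSSM/control ratio was 35.7 with PSSM muscle in Cy5 and 43.0 with PSSM muscle in Cy3, and in both the control signal was above its floor. Horse 12 had 6.60 in Cy5, with the control at its floor, and 16.3 in Cy3. Horse 32 had 1.90 in Cy5 at the floor and 7.42 in Cy3 above it. At the tolerance of 0.0002 those were the 3 horses in which the control signal of IL18 was above its floor on at least 1 microarray. For horse 12 this rests on the Cy3 value alone, which falls at the floor with a tolerance of 0.001.

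In horse 44 both IL18 ratios, 6.30 in Cy5 and 4.40 in Cy3, were taken over a control signal at its floor. Horse 42 had a single value of 1.30 in Cy5, and horse 38 a single value of 1 in Cy3, both at the floor. Horse 54 had none. At a ratio of 1 over the floor the PSSM signal was no higher than the floor, so horse 38 gives no measured IL18 level on either side. Thus 6 of the 10 values rested on a control signal at its floor, or 7 with a tolerance of 0.001, which adds the Cy3 value of horse 12.

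Averaged per horse, the log2 ratios of IL18 were 5.29 in horse 5, 3.37 in horse 12, 2.40 in horse 44, 1.91 in horse 32, 0.38 in horse 42 and 0.00 in horse 38. Their mean was 2.23 ± 1.96 (SD, n = 6), a ratio of 4.68, and 5 of 6 horses lay above 1. In horses 38, 42 and 44 the floor allowed no ratio below 1. The SD of 1.96 compares with a median of 0.33 over the 361 equine probes, and 1 horse weighed heavily: without horse 5 the mean log2 ratio was 1.61. With the floor values (within 0.0002) left out only horses 5, 12 and 32 remained, with a mean log2 ratio of 4.07. The value of horse 12 in that mean falls at the floor with a tolerance of 0.001.

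The mouse Il18 probe gave 6 values in 4 horses, all at or above 1. Horse 5 had 2.01 in Cy5 and 2.15 in Cy3, both above the control floor. The other values were at the floor: 2.90 in Cy3 for horse 12, 1 in Cy5 and 1.30 in Cy3 for horse 44, and 1.20 in Cy3 for horse 54. The mean log2 ratio was 0.76 ± 0.65 (SD, n = 4), with too few horses for the fit. On both probes horses 5 and 12 stood above horse 44, but the equine probe put horse 5 highest and the mouse probe horse 12.

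**Figure D2:**
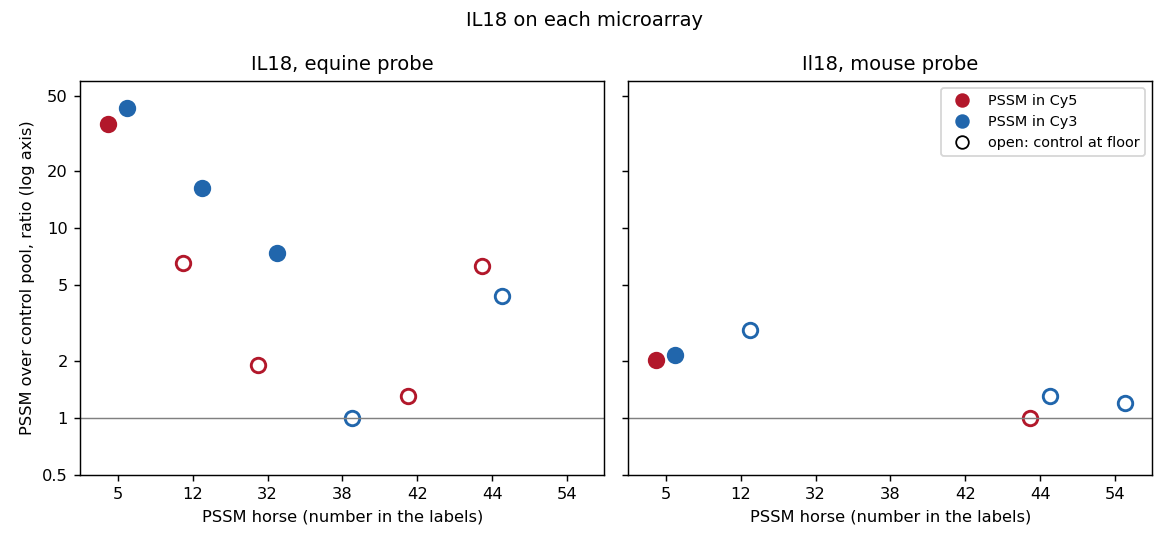
PSSM/control ratio of IL18 (log axis) on each microarray by horse, for the equine probe at left and the mouse probe at right, with PSSM muscle in Cy5 in red and in Cy3 in blue. Open points have the control signal at its floor. Equine ratios run from 1 in horse 38 to 43.0 in horse 5, and the highest mouse ratio is 2.90 in horse 12.

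The IL-1 cytokines gave few values. IL1A, the cell-associated alarmin, had no value on its equine probe and 8 values in 6 horses on the mouse probe. Horse 44 had 0.255 in Cy5 and 0.662 in Cy3, horse 32 had 0.483 in Cy3, horse 54 had 0.536 in Cy3 and horse 42 had 0.743 in Cy5, all below 1 and with the control above its floor. Horse 5 had 1 in Cy5 and 1.20 in Cy3, and horse 12 had 1 in Cy3, all at the floor. The mean log2 ratio was -0.59 ± 0.58 (SD, n = 6), with 1 horse above 1, 4 below and 1 at 1. At a ratio of 1 over the floor, horse 12 and horse 5 in Cy5 do not show on which side of the control pool they were. The 1.20 of horse 5 in Cy3 was a PSSM signal above the floor, on that microarray only.

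IL1B, the main secreted IL-1 cytokine, had 2 values on each probe. The equine probe gave 1 at the floor in Cy5 for horse 42 and 0.255 in Cy3 for horse 54. The mouse probe gave 1.5 at the floor in Cy3 for horse 12 and 0.419 in Cy3 for horse 42. With 2 values per probe, 1 of them at the floor, no level of IL1B was compared between horses. No microarray gave a value on both probes.

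The inhibitors lay close to the control pool. Equine IL1RN, the IL-1 receptor antagonist, was measured on all 14 microarrays, with horse log2 ratios between -0.13 in horse 32 and 0.24 in horse 44. The mean was 0.07 ± 0.14 (SD, n = 7), with 4 horses above 1. The mouse Il1rn probe gave 0.07 ± 0.22 (SD, n = 7), with 3 horses above 1, and ran between -0.20 in horse 12 and 0.41 in horse 42. The sign of the horse mean was the same on both probes in 6 of 7 horses, horse 5 being the exception. Some of these signs carry little, as horse 12 had -0.0014 on the equine probe and horse 54 had -0.0049 on the mouse probe. The 2 probes also share microarrays and the control pool.

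Il18bp, the secreted IL-18 decoy, was read only by a mouse probe, with 8 values in 6 horses and 1 of them at the floor. Its ratios ran between 0.735 in horse 44 and 1.30 in horse 42. The mean log2 ratio was -0.03 ± 0.28 (SD, n = 6), 3 horses being above 1 and 3 below. In horse 5, where IL18 was highest, Il18bp was 0.835 in Cy5 and 0.922 in Cy3.

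Of the IL-18 receptor chains, the ligand-binding chain Il18r1 had no value. The signaling chain Il18rap had 10 values in 7 horses on its mouse probe, 4 of them at the floor, and its mean log2 ratio was 0.26 ± 0.61 (SD, n = 7), with 5 horses above 1 and 1 below. The lowest value was 0.552 in Cy5 for horse 32 and the highest 2.50 in Cy5 for horse 54, where the control was at its floor. Horse 12 had 1.80 in Cy3 and horse 5 had 1.10 in both orientations, with the control above its floor.

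IL1R1, the signaling receptor of IL-1, had among the smallest spreads between horses on the microarray. Its mean log2 ratio was -0.03 ± 0.09 (SD, n = 7), between -0.18 in horse 42 and 0.10 in horse 44. Only 4 of the 361 tested equine probes had a smaller SD. With each microarray centred on the equine probes, which raised the median of the equine probes by 0.12, the mean of IL1R1 was 0.09, so its sign depends on the scaling. The same centring turned the mean of Il18bp to 0.08, whereas the means of the other tested members kept their signs.

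CASP1, the IL-1β and IL-18 processing protease, had a mean log2 ratio of 0.09 ± 0.21 (SD, n = 7) on its equine probe, with 5 horses above 1 and 2 below. The horse ratios were 1.33 in horse 42, 1.21 in horse 38, 1.09 in horse 32, 1.05 in horse 44, 1.04 in horse 54, 0.921 in horse 12 and 0.880 in horse 5. The horses below 1 were thus those with the highest IL18. The mouse Casp1 probe had 3 values, 1.10 at the floor in Cy5 and 0.621 in Cy3 for horse 44, and 0.897 in Cy3 for horse 5. The inflammasome adaptor Pycard had no value.

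In the fit over all probes (limma with Benjamini-Hochberg adjustment, at least 5 horses), 8 of the 16 probes were tested, 4 equine and 4 mouse. IL18 alone passed, higher in PSSM muscle, 1 of 4 equine probes against 24.4% of all tested equine probes (16 higher and 72 lower). Of the mouse probes 0 of 4 passed against 1.81% of all tested mouse probes. These calls come from the ratios on which the genes were chosen and are printed as a count only. The count was 0 when horse 5, 12, 32 or 44 was left out.

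A comparison not used in choosing the genes, that between dye orientations, was tested for 4 probes, and the ratios of 3 differed. In every horse, PSSM muscle in Cy3 went with the same replicate number and PSSM muscle in Cy5 with the other. Dye and replicate number therefore cannot be told apart, and the part of each in these shifts was not tested. The comparison is the log2 ratio with PSSM muscle in Cy5 minus that with PSSM muscle in Cy3 within each horse, and over all probes it passed in 55% of the tested equine probes and 38.5% of the tested mouse probes. Of the 4 probes, 2 of 3 equine probes and the mouse probe passed, so that the count stands beside a background in which such shifts were common.

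For IL1R1 the ratios with PSSM muscle in Cy5 lay between 0.646 and 0.884, all 7 below 1, and those with PSSM muscle in Cy3 were all 7 above 1 and reached 1.43, the lowest being barely above 1 in horse 32. The orientations did not overlap, and how often this held over all probes was not counted. The difference was -0.60 ± 0.24 (SD, n = 7; limma adjusted p = 0.00214), negative in 7 of 7 horses. In absolute size this difference exceeded that of 67.3% of the tested equine probes, whose median was 0.43. Read from 1 orientation alone, IL1R1 was below the control pool in Cy5 (mean log2 ratio -0.33) and above it in Cy3 (0.26).

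For CASP1 the ratios were 0.844 to 1.13 with PSSM muscle in Cy5 and 0.883 to 1.57 with PSSM muscle in Cy3, and these ranges overlapped. The difference was -0.32 ± 0.24 (SD, n = 7; limma adjusted p = 0.0408), negative in 7 of 7 horses. It no longer passed without horse 12 (limma adjusted p = 0.0567), horse 38 (0.0960), horse 42 (0.110), horse 44 (0.0818) or horse 54 (0.0691). The mouse Il1rn probe moved the other way, with ratios of 0.992 to 1.55 in Cy5 and 0.752 to 1.14 in Cy3, a difference of 0.40 ± 0.20 (SD, n = 7; limma adjusted p = 0.0157), positive in 6 of 7 horses. The equine IL1RN probe did not pass, with 0.12 ± 0.29 (SD, n = 7; limma adjusted p = 0.412). IL18 had both orientations in 4 horses only and was not tested, its difference being -0.76 ± 1.10 (SD, n = 4).

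**Figure D3:**
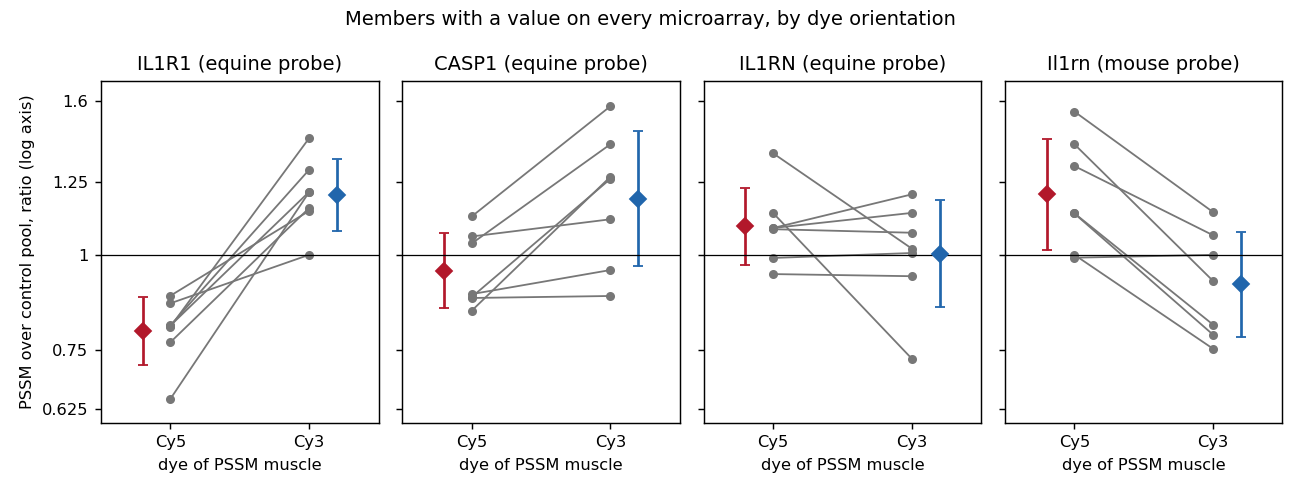
PSSM/control ratio (log axis) with PSSM muscle in Cy5 and in Cy3 for the 4 probes with a value on all 14 microarrays. Grey lines join the microarrays of 1 horse, and diamonds with bars are the mean and SD of 7 horses on the log scale. All lines of IL1R1 and CASP1 rise to the right, 6 of 7 lines of Il1rn fall, and those of IL1RN go both ways.

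The pattern of IL18 across horses was set beside that of every equine probe with a value in the same 6 horses, by the Pearson correlation of the horse means. Of 347 such probes, 29 had r above 0.8 and 16 had r below -0.8, the median being 0.13. These values describe 6 points that share the control pool and the microarrays, and the IL18 points of horses 38 and 42 rest on 1 microarray each. In horses 38, 42 and 44 every IL18 value, and in horses 12 and 32 that in Cy5, was taken over a control signal at its floor, so the IL18 ratios of these horses, and their order, are not measured exactly, nor is r.

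Most like IL18 were both probes of COX 2, which is mitochondrial cytochrome c oxidase subunit II and not the prostaglandin synthase PTGS2 (both r = 0.97, and 0.98 and 0.95 without horse 5). The next were IL10, an anti-inflammatory cytokine (r = 0.96, 0.93 without horse 5), NSEP1, encoding the Y-box nucleic acid binding protein (r = 0.93, 0.83 without horse 5), and GSTO1, an omega class glutathione transferase (r = 0.93, 0.90 without horse 5). In horse 5 the log2 ratio of IL10 was 0.50 and that of GSTO1 2.32. The means over 7 horses were -0.24 ± 0.45 and -0.54 ± 0.48 for the COX 2 probes and 0.09 ± 0.25 for NSEP1 (SD). They were 0.21 ± 0.21 for IL10 and 0.97 ± 0.98 for GSTO1 (SD). A high r here thus describes the pattern across horses and not a raised level.

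At the opposite end stood glycolytic genes, PGK1, phosphoglycerate kinase (r = -0.98, -0.96 without horse 5), LDHA, lactate dehydrogenase A (r = -0.96, -0.98 without horse 5), and PFKM, muscle phosphofructokinase (r = -0.96, -0.94 without horse 5). Their means over 7 horses were near 0, at 0.17 ± 0.81 for PGK1, 0.29 ± 0.84 for LDHA and 0.15 ± 0.73 for PFKM (SD). CASP1 lay beside them, with r = -0.94, and ranked 344 of 347, while IL1R1 had r = 0.32 and IL1RN r = -0.22. The SD between horses was 1.96 for IL18 and 0.21 for CASP1.

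**Figure D4:**
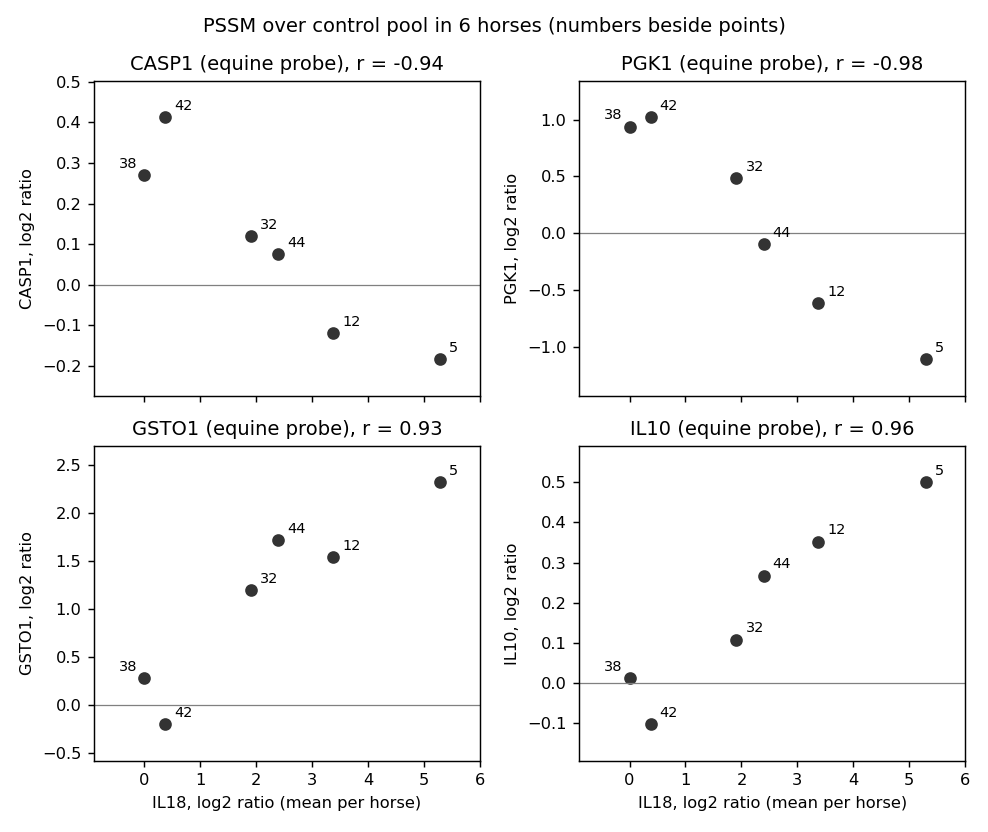
Log2 PSSM/control ratios (mean per horse) of CASP1, PGK1, GSTO1 and IL10 on the y axis against IL18 on the x axis, each point a horse with its number. CASP1 and PGK1 fall from horses 38 and 42 to horse 5 (r = -0.94 and -0.98), and GSTO1 and IL10 rise (r = 0.93 and 0.96).

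Beyond the 10 genes, 46 other genes of the pathway were listed, and 38 of them were on the microarray with 50 probes, 7 of which had no value. Of the tested probes, 1 of 7 equine probes was higher in PSSM muscle and 0 were lower. Among all 361 tested equine probes 24.4% were called, 16 higher and 72 lower. Of 16 mouse probes 0 were called, against 1.81% of all tested mouse probes. The median log2 ratio was -0.10 over the 7 equine probes and 0.01 over the 16 mouse probes, against -0.08 and -0.01 over all tested equine and mouse probes. The probe called was equine IL15, a cytokine of lymphocyte and muscle growth, with a mean log2 ratio of 0.42 ± 0.29 (SD, n = 7; limma adjusted p = 0.0254), above 1 in 7 of 7 horses and between 0.12 and 0.98. It no longer passed without horse 5 (limma adjusted p = 0.0553) or horse 54 (0.0543), or from microarrays with PSSM muscle in Cy3 alone (log2 ratio 0.18, limma adjusted p = 0.254). The mouse Il15 probe had -0.01 ± 0.40 (SD, n = 7; limma adjusted p = 0.975), with 3 horses above 1.

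By role, the 8 tested probes of sensors and processing enzymes, the 4 of other IL-1 family ligands and receptors and the 4 of signal transduction held no call. Among the probes tested (5 or more horses) for sensors and processing enzymes, the largest differences were those of Aim2, the DNA sensor, with -0.62 ± 0.65 (SD, n = 7; limma adjusted p = 0.157) and 2 of 11 values at the control floor, and Casp4, the caspase of the noncanonical inflammasome, with -0.30 ± 0.20 (SD, n = 7; limma adjusted p = 0.113). Aim2 was below 1 in 6 of 7 horses and Casp4 in 7 of 7, whereas Nlrp3, the best known inflammasome sensor, had 0.02 ± 0.21 (SD, n = 7; limma adjusted p = 0.908). Of the tested probes of other family members the largest differences were those of Il1rl1, the IL-33 receptor, with -0.27 ± 0.28 (SD, n = 7; limma adjusted p = 0.203), and equine IL1R2, the decoy receptor of IL-1, with 0.26 ± 0.42 (SD, n = 5; limma adjusted p = 0.302). Of the 8 IL1R2 values 2 were at the control floor.

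The largest differences among the tested probes of the signal transduction list were those of TLR4, the lipopolysaccharide receptor, with 0.58 ± 0.67 (SD, n = 7; limma adjusted p = 0.0841), and Irak2, a receptor-associated kinase, with 0.16 ± 0.07 (SD, n = 7; limma adjusted p = 0.206). TLR4 was above 1 in 6 of 7 horses and Irak2 in 7 of 7, and 2 of the 13 TLR4 values were at the control floor. The 7 tested probes of partners and targets included IL15 as the single call, and interferon-γ, the cytokine that IL-18 induces, had no value on its mouse probe.

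Markers of other cells were read on the same microarrays. Skeletal muscle genes, the markers of the labelled tissue, had 112 values on their 8 equine probes, with 1 at the floor. Their 13 mouse probes had 138 values with 3 at the floor, and 1 of these probes had no value. Such detection was not particular to muscle: the 3 equine macrophage probes had 42 values with 1 at the floor. Of macrophage markers 7 of 11 probes were tested (3 equine and 4 mouse) and none passed. None passed either of 7 neutrophil probes (2 equine and 5 mouse) and 10 T and NK cell probes (1 equine and 9 mouse). Over all tested probes 24.4% of equine and 1.81% of mouse probes passed, so lists made mostly of mouse probes would hold few calls in any case. Of 7 fibroblast probes (2 equine and 5 mouse) 1 passed, equine LUM, a collagen fibril proteoglycan (1.65 ± 1.44, SD, n = 7; limma adjusted p = 0.0269). LUM missed the threshold without horse 5, 12, 38 or 42, with limma adjusted p of 0.0527 to 0.0627, and under the methods' t-test of the horse means after adjustment. The median log2 ratio of the 3 equine macrophage probes (CD14, CTSS and CSF1R) was 1.11 in horse 44, 0.48 in horse 5, -0.20 in horse 12 and -0.09 to 0.05 in the others. The median of the tested mouse macrophage probes ran from -0.24 in horse 5 to 0.20 in horse 42, with -0.04 in horse 12, so the 2 sets of probes ordered the horses differently. CTSS, the lysosomal protease cathepsin S, had the largest mean of the tested macrophage probes, 1.67 ± 1.79 (SD, n = 7; limma adjusted p = 0.0568).

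All 7 fibroblast probes had means above 0, with a median log2 ratio of 0.86. Apart from LUM, the mouse probes of the matrix genes Col3a1 (1.07 ± 1.10, SD, n = 7; limma adjusted p = 0.146) and Dcn (1.04 ± 1.26, SD, n = 7; limma adjusted p = 0.204) had the largest means. Of the 11 Col3a1 values 4 were at the control floor. Horse 44 was highest, with medians of 2.76 over the equine and 3.00 over the mouse fibroblast probes, and horse 5 had 1.05 and 1.31. Horses 32 and 54 were lowest, between -0.15 and 0.11. The part of other cells in the IL18 ratios was not tested.

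Series-wide values bear on how far single microarrays can be read. Over the equine probes the 2 microarrays of a horse had a median correlation of 0.48, from -0.22 in horse 32 to 0.63 in horse 44, with -0.01 in horse 12, whereas microarrays of different horses with the same orientation had a median of 0.58. The IL18 values of horses 12 and 32 thus come from pairs of microarrays that did not run together. The Cy5 microarray of horse 54 stood apart with 20% of its values at the control floor, against 5.72% to 12.2% on the others, and without it the IL18 mean did not move, since horse 54 had no IL18 value.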

How the data were processed

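Total RNA of muscle was amplified by in vitro transcription with aminoallyl UTP, coupled to Cy3 or Cy5 and hybridized to spotted oligonucleotide microarrays with 50-nucleotide equine probes and mouse probes. The authors quantified spots with GenePix Pro 6.0 and normalized them by Lowess per spot and microarray in GeneSpring. The deposited values are on the natural log scale, ln of the Cy5/Cy3 ratio, recognized from the lowest ratio of 0.01. The background correction and the rules for the floor and for empty cells are not given in the sources used here, and the number of microarrays limits precision.

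Values were turned to PSSM/control by the dyes in the labels, converted to log2 and averaged per horse (1 replicate). In probes measured in 5 or more horses, limma 3.58.1 (lmFit, then eBayes; R 4.3.3) compared the horse means with no change, with p-values adjusted by Benjamini-Hochberg over equine and mouse probes separately, with calls at adjusted p under 0.05. The study's methods state a plain test of horse means, which was an alternative. The fit was tested on simulated data. Python 3.11.15 with pandas 2.3.3, numpy 2.4.6 and matplotlib 3.10.9 did the rest, and statmod 1.5.0 the block fit.

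The genes and lists were chosen with earlier results of these data known. Named are all probes of the 10 genes, pathway probes that passed (up to 8, or the 2 largest of a sub-list where none passed), Nlrp3, mouse Il15 and Ifng (picked after their values were seen), and the 5 equine probes most like IL18 and the 3 least like it. Macrophage, neutrophil, T and NK cell, endothelial, fibroblast, adipocyte and skeletal muscle markers were listed too. Of endothelial (4 probes, 1 equine and 3 mouse) and adipocyte (2 mouse probes) markers none passed. Of 18 skeletal muscle probes (8 equine and 10 mouse) 1 was lower, equine ATP2A1 (log2 ratio -0.68). Over all tested probes 24.4% of equine and 1.81% of mouse probes passed. Sequences of the probes were not used here.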

Additional observations from a re-analysis of the deposited data

How the results depend on the processing

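The mean log2 ratio of IL18 was above 0 under all 13 alternatives. No IL18 ratio lay below 1, so leaving out horses, a dye orientation or floor values could not turn its sign. Leaving out the Cy5 microarray of horse 54 removed no IL18 value. The mean was 2.90 from microarrays with PSSM muscle in Cy3 alone, 2.37 in Cy5 alone, and 1.61 to 2.67 when single horses were left out. The count of probes of the 10 genes that passed, PSSM over control, was 1 (IL18) and moved more. It was 3 in Cy3 alone (IL18, Il18rap, IL1R1) and 2 in Cy5 alone (IL18, IL1R1). Calls were also more common over all tested equine probes, 170 of 357 in Cy3 alone and 113 of 346 in Cy5 alone, against 88 of 361 in the main fit. The 2 calls of IL1R1 had opposite directions, with mean log2 ratios of 0.26 in Cy3 and -0.33 in Cy5. It was 0 by the methods' t-test after adjustment (1 before it), and 0 when adjusted over all probes together. It was also 0 among probes with a value on all 14 microarrays and with floor values left out, where IL18 could not be tested. Leaving out single horses gave 0 to 1 calls, 0 without horse 5, 12, 32 or 44. The count of dye orientation calls was 3, and 2 to 3 when single horses were left out. The differences of IL1R1 and Il1rn passed under every alternative run. Leaving out the Cy5 microarray of horse 54, chosen after seeing the data, ended the CASP1 dye call (limma adjusted p = 0.0691). Adjusted over all probes together, IL15, LUM and ATP2A1 no longer passed either (0.0861, 0.0899 and 0.0518), and ATP2A1 did not in Cy5 alone (0.0534). LUM missed it by the methods' t-test too (adjusted p = 0.0897). No paired analysis was possible because the control is 1 pool hybridized with every horse. The equine IL1A probe and the mouse Il18r1, Il1r1 and Pycard probes had no value, and IL1B and mouse Casp1 had too few for a comparison.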
